A study of Homo sapiens with 8 samples.

Results

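The ligands of NKG2D were followed at the transcript level in MP38 cells, a BAP1-mutant UM cell line, under 2 HDAC inhibitors and 1 BET inhibitor. The 8 human genes that encode them, MICA, MICB, ULBP1, ULBP2, ULBP3, RAET1E, RAET1G and RAET1L, were taken by name from the 35238 gene symbols of the count table. Cultures grew for 24 h in 0.1% DMSO alone (control), 40 nM romidepsin, 40 nM quisinostat or 1200 nM mivebresib, each drug also in 0.1% DMSO. Every group held 2 bulk RNA libraries from separate wells of this line, so the p-values below describe the spread between wells and not between tumors. Romidepsin and quisinostat inhibit histone deacetylases (HDAC), whereas mivebresib blocks the bromodomains of BET proteins.

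NKG2D is an activating receptor of natural killer (NK) cells and of some T cells. Its ligands are distant relatives of MHC class I molecules that carry no peptide, are scarce on most healthy cells and are induced by DNA damage, heat shock, infection and transformation. MICA and MICB are transmembrane proteins encoded beside the HLA class I genes and are highly polymorphic, while ULBP1, ULBP2, ULBP3 and RAET1L (also named ULBP6) are held in the membrane by a glycolipid anchor. RAET1E (ULBP4) and RAET1G (ULBP5) have transmembrane forms. Tumor cells can lose these proteins from the surface by proteolytic shedding, so a transcript level is not a surface level.

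In GRCh38 (GENCODE 29), MICA lies on chromosome 6 from 31399784 to 31415315 and MICB from 31494881 to 31511124, both on the plus strand. The other members form a second cluster on the same chromosome, where ULBP2 runs from 149942000 to 149949235 and ULBP1 from 149964007 to 149973710 on the plus strand. RAET1E (149883375 to 149898102), RAET1G (149916878 to 149923121), RAET1L (150018334 to 150025532) and ULBP3 (150063150 to 150069095) lie on the minus strand. The promoter windows of RefSeq (GRCh38.p14, 250 bases before to 50 after the annotated start) were found for all 8 genes, with 3 windows for RAET1E. Those of MICA, MICB, ULBP1 and ULBP2 are shown because the MIC genes and the ULBP genes gave the main contrasts below. They read 5′ to 3′ on the strand of the gene, and capitals mark matches on either strand. The motifs searched were the heat shock element core GAANNTTC, the promoter element GGGCGG known as the GC box, the element CCAAT that names the CCAAT box, the hexamer CACGTG known as the E-box, and the E2F sites TTTCGCGC or TTTGGCGC. They lie at chr6:31403345-31403644 for MICA, chr6:31497895-31498194 for MICB, chr6:149963693-149963992 for ULBP1 and chr6:149941764-149942063 for ULBP2.
MICA: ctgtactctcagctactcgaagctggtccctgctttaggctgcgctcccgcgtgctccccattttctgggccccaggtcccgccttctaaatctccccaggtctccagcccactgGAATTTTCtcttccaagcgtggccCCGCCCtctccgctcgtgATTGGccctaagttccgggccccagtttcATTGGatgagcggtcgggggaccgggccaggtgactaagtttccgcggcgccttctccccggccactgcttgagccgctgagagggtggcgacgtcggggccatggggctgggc
MICB: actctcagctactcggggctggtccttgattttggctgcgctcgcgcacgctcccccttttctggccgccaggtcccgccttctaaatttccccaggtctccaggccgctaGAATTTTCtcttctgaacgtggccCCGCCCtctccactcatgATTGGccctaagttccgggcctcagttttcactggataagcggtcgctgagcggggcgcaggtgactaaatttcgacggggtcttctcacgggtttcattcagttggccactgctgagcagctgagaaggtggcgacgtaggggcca
ULBP1: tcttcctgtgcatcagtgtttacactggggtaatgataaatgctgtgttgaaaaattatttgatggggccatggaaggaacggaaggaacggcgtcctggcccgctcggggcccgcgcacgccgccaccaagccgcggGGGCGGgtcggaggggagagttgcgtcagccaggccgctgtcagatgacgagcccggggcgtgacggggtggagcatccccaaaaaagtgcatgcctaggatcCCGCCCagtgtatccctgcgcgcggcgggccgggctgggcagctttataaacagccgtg
ULBP2: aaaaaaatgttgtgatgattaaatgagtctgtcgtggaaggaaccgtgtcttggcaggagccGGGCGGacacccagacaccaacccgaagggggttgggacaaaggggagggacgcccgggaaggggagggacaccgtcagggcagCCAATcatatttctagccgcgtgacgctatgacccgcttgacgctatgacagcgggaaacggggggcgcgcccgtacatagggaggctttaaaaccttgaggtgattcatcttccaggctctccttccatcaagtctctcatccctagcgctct

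The MICA and MICB windows were alike, with 78.2% identical bases in a global alignment against 40.5% to 54.7% for the other 20 pairs of members with 1 window each. Both held the heat shock element core, which was in 6.77% of all 35116 promoter windows and in none of the other members' windows. Both also held a GC box next to a CCAAT box, and MICA had a further CCAAT box that MICB lacked. ULBP1 had 2 GC boxes and ULBP2 a GC box and a CCAAT box, while the ULBP3 window at chr6:150069072-150069371 held 6 GC boxes. A GC box was in 45.0% of all windows and a CCAAT box in 34.6%. No E2F site (1.15% of all windows) was found in a member's window, and an E-box (7.26%) was found only in 1 of the RAET1E windows. Matches to different motifs did not overlap. These are letter matches and say nothing of whether a factor binds.

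Library totals ran from 28483235 to 29359024 counts, and 15085 genes passed the filter on low counts, among them 7 of the 8 ligands. MICA, MICB, ULBP1, ULBP2 and ULBP3 passed it in the control libraries already, but RAET1E passed only through the romidepsin and quisinostat libraries and RAET1G only through quisinostat. RAET1L did not pass. Replicates differed beyond sampling noise in every group. The chi-square per degree of freedom between replicates was 58.2 for the control pair and 9.52 to 9.79 for the drug pairs. Of 8 melanocytic markers 7 were tested. In the control libraries MLANA had 6194 and 5265 counts and TYR 50 and 94. DCT, not tested, had 4 and 1 there and at most 5 in any library. With romidepsin, quisinostat and mivebresib 1, 3 and 5 of the 7 were called lower and none higher. Their median log2 FC was 0.05, -0.25 and -1.33. Over all tested genes 15.8%, 25.1% and 24.1% were called lower and 15.2%, 28.0% and 22.2% higher. The adaptor TYROBP and the T cell genes CD2, CD3D and CD3E had 0 counts in all libraries. KLRK1, which encodes NKG2D itself, and HCST, the other adaptor listed, each had at most 10. Of the 10 lymphocyte markers listed, 1 passed the filter, the NK receptor gene KLRD1. It had 35 and 38 counts in the control, 58 and 40 with romidepsin, 55 and 71 with quisinostat and 49 and 44 with mivebresib, and was called with no drug (log2 FC 0.36, 0.61 and 0.36). PTPRC had at most 11 counts and GZMB at most 10. The summed level of this list was 1.70 and 1.90 CPM in the control, 2.44 and 2.07 with romidepsin, 2.66 and 3.03 with quisinostat, and 2.12 and 1.83 with mivebresib, and its part in the results was not tested.

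MICA and MICB were the most abundant ligand transcripts in untreated cells. Per kilobase of annotated exon, and after TMM scaling of the deposited counts to CPM (reads of a gene relative to the library total), the control libraries held 10.6 and 12.04 CPM per kb of MICB and 7.45 and 9.17 of MICA. ULBP3 followed at 2.37 and 3.25 CPM per kb, ULBP2 at 2.34 and 2.68, and ULBP1 at 1.03 and 1.34. The ranges of ULBP3 and ULBP2 overlapped, whereas those of MICB and MICA, and of ULBP2 and ULBP1, did not. RAET1E had 1 and 7 counts in the control libraries and RAET1G 2 and 0. RAET1L had none, which allows up to 0.106 and 0.110 CPM in the 2 libraries (3 counts each, counting error only).

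**Figure D1:**
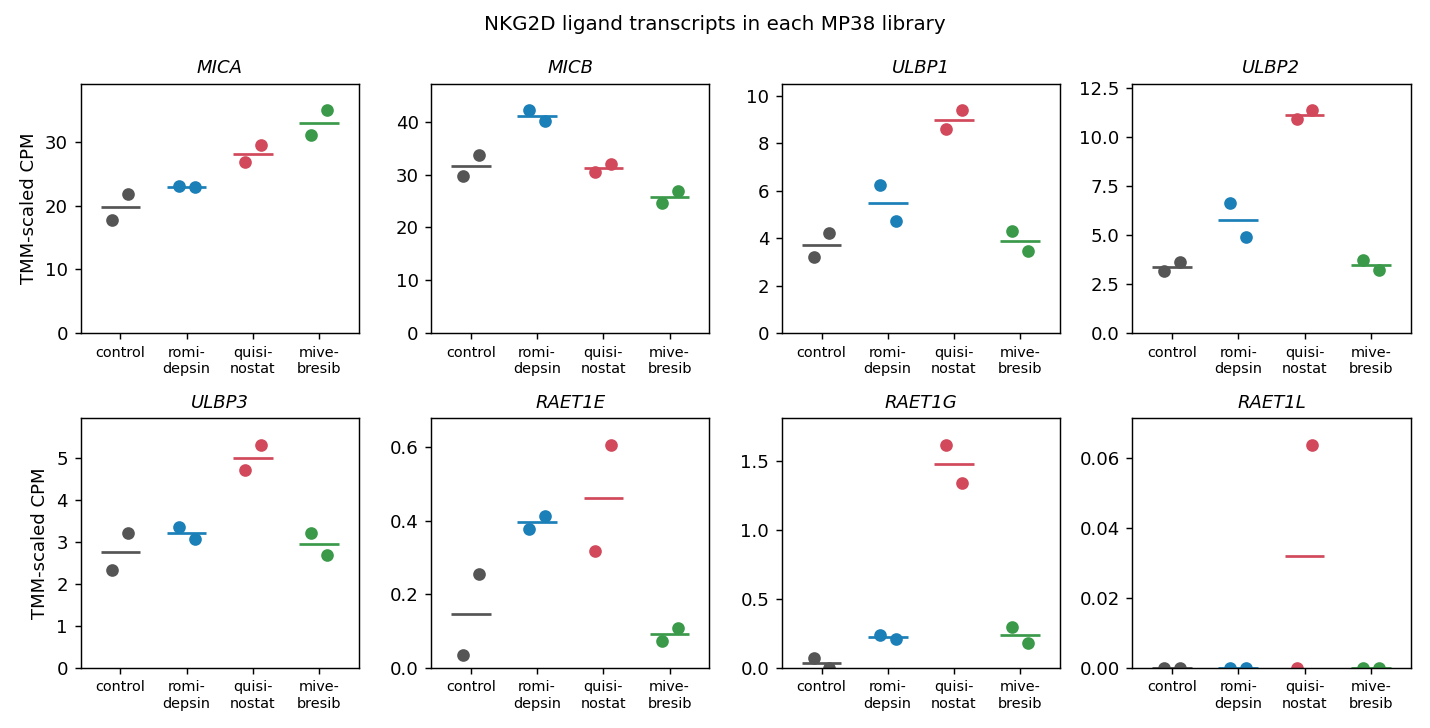
TMM-scaled CPM (y axis, linear from 0) of each ligand in the 8 MP38 libraries, 2 points per group with a bar at their mean. With quisinostat both libraries lay above all other libraries for ULBP1, ULBP2, ULBP3 and RAET1G, while MICA was highest and MICB lowest with mivebresib.

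Quisinostat raised the ULBP group most. The threshold for a call was 0.05 on the p of edgeR's quasi-likelihood test after adjustment by Benjamini-Hochberg over all tested genes. Of the 5 ligands that passed the filter in the control alone 4 were higher and none lower with quisinostat, with a median log2 FC of 0.85. Over all tested genes 28.0% were called higher and 25.1% lower with this drug, and the median log2 FC was -0.0036. Changes are relative to the bulk of genes, since fewer cells and less RNA per cell cannot be told apart in bulk samples.

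ULBP2, a glycolipid-anchored ligand, stood at 3.15 and 3.62 CPM in the control and at 10.9 and 11.4 with quisinostat. The groups were far apart, and the gene rose 3.29-fold (log2 FC 1.72, SE 0.17, edgeR adjusted p = 8.05e-05). ULBP1 had 3.22 and 4.20 CPM in the control and 8.61 and 9.39 with quisinostat. It rose 2.42-fold (log2 FC 1.28, SE 0.19, adjusted p = 0.000722). ULBP3 had 2.34 and 3.22 CPM in the control and 4.72 and 5.32 with quisinostat, a 1.81-fold rise (log2 FC 0.85, SE 0.19, adjusted p = 0.00558). In all these genes the lowest quisinostat library lay above the highest control library. At the same threshold these 3 calls held in every alternative fit on counts. In limma on the deposited quantile-normalized table ULBP2 was called, but ULBP1 (adjusted p = 0.207) and ULBP3 (0.902) were not, nor was MICA (0.517).

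RAET1G, a low-abundance ligand, had 2 and 0 counts in the control and 51 and 42 with quisinostat. Pooled over libraries its ratio to the control was 41.1, with a counting interval of 11.1 to 344, and edgeR called it (log2 FC 5.20, adjusted p = 0.000186). Since the gene was tested only because it is high with quisinostat, it is left out of the count above. ULBP2 passed the paper's fold threshold, a log2 FC beyond 1.5, which 11.2% of all tested genes passed upwards with this drug. RAET1G lay beyond it too, as a description only. RAET1E had 10 and 19 counts with quisinostat against 1 and 7 in the control, and was not called (log2 FC 1.65, 95% interval 0.09 to 3.20, adjusted p = 0.0706). It was called by limma-voom (adjusted p = 0.0484) and by edgeR without TMM factors (0.0471), and without control replicate 2 its log2 FC was 3.54. RAET1E passed the filter only through the romidepsin and quisinostat libraries, where it is high, so its values are a description. RAET1L had 0 and 2 counts with quisinostat and 0 in all other libraries, within the limit of 3 counts, so no fold is given.

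Reads of these genes can be hard to assign. Of the 31-base windows in the annotated ULBP2 transcripts 41.7% also occur in RAET1L and 17.6% in RAET1G, and with the counts of these 3 genes summed the quisinostat change was a log2 FC of 1.89 (adjusted p = 4.37e-05). ULBP1 shares 12.6% of its windows and ULBP3 16.2% with the pseudogene RAET1K. RAET1K itself had 7 and 6 counts in the control and 25 and 22 with quisinostat, a log2 FC of 1.66, given as a description because the gene passed the filter only in the libraries of the HDAC inhibitors. In the quisinostat libraries ULBP1 had 272 and 295 counts and ULBP3 149 and 167. The RAET1K counts hold only reads assigned to that gene. They cannot bound reads of RAET1K assigned to ULBP1 or ULBP3, whose part was not tested. RAET1E shares 33.9% of its windows with AL355312.5, which overlaps it on the same strand. RAET1E and RAET1G overlap an antisense gene, and whether the counting used strand is not given in the sources used here.

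With romidepsin at the same 40 nM, 2 of the 5 ligands were called higher and none lower, against 15.2% of all tested genes called higher and 15.8% lower. ULBP2 had 6.66 and 4.89 CPM, above both control libraries, and rose 1.71-fold (log2 FC 0.77, SE 0.18, edgeR adjusted p = 0.0137). MICB had 42.1 and 40.2 CPM against 29.7 and 33.7 in the control, and rose 1.30-fold (log2 FC 0.38, SE 0.09, adjusted p = 0.0161). ULBP1 (6.25 and 4.72 CPM) also lay above the control libraries but was not called (log2 FC 0.56, 95% interval 0.10 to 1.02, adjusted p = 0.0638). ULBP3 (3.37 and 3.07 CPM) overlapped the control, with a log2 FC of 0.21 and an interval of -0.24 to 0.67. RAET1G, at 7 and 6 counts, had a pooled ratio of 6.22 (counting interval 1.41 to 56.7) and was not called (adjusted p = 0.0576), and RAET1E, at 11 and 12 counts, had a ratio of 2.75 (1.19 to 7.11, adjusted p = 0.155). Neither romidepsin call was firm. Without romidepsin replicate 1 the adjusted p was 0.104 for ULBP2 and 0.113 for MICB, and without romidepsin replicate 2 it was 0.0604 for MICB. Conversely, without control replicate 2 the log2 FC was larger for ULBP1 (0.76), MICA (0.37) and RAET1E (3.33). Without control replicate 1 it was 5.75 for RAET1G, where the control library left had 0 counts. ULBP1 was called by edgeR without TMM factors (adjusted p = 0.0396) or with upper-quartile factors (0.0411). RAET1G was called by limma-voom (0.0379) and by limma on the quantile-normalized table (0.000629). For RAET1E and RAET1G these values are a description, since both passed the filter only through libraries of HDAC inhibitors where they are high.

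**Figure D2:**
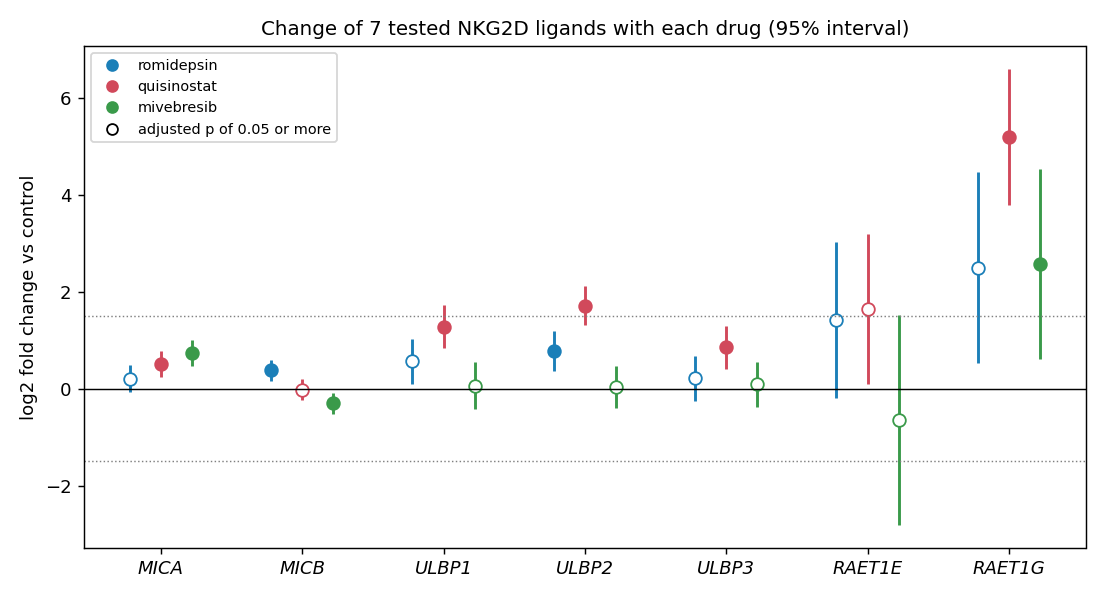
log2 FC against the control (y axis) of the 7 tested ligands for each drug, with 95% intervals from edgeR, filled where the adjusted p was below 0.05, and dotted lines at the paper's fold threshold of 1.5. The ULBP genes sit highest with quisinostat and near 0 with mivebresib, while the wide intervals of RAET1E and RAET1G reflect their few counts.

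The HDAC inhibitors were also compared directly at their common dose. This dose does not match them for potency, since in the paper's viability assays romidepsin was the more potent in this line. Quisinostat gave higher levels than romidepsin for 3 of the 5 ligands and a lower level for 1, against 21.0% and 14.6% of all tested genes. The log2 difference was 0.95 for ULBP2 (SE 0.16, edgeR adjusted p = 0.00298), 0.71 for ULBP1 (SE 0.19, adjusted p = 0.0177) and 0.64 for ULBP3 (SE 0.19, adjusted p = 0.0283). RAET1G was also higher, by 2.70, but it was tested only because it is high with quisinostat, so this difference is a description. MICB was the member that was lower with quisinostat, by a log2 difference of -0.40 (SE 0.09, adjusted p = 0.0111). MICA differed by 0.29 with an interval of 0.03 to 0.56 (adjusted p = 0.0797, or 0.0295 and 0.0194 without control replicate 1 and 2) and RAET1E by 0.22 with an interval of -1.05 to 1.49. The calls for ULBP1, ULBP3 and MICB depended on single libraries: ULBP3 was lost (adjusted p 0.0825 to 0.183) without any 1 of the 4 libraries compared, ULBP1 without romidepsin replicate 2 (0.125), quisinostat replicate 1 (0.0677) or quisinostat replicate 2 (0.121), and MICB without romidepsin replicate 1 (0.0773) or quisinostat replicate 1 (0.0795).

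Mivebresib moved MICA and MICB in opposite directions and left ULBP1, ULBP2 and ULBP3 uncalled. Of the 5 ligands 1 was called higher and 1 lower, against 22.2% and 24.1% of all tested genes, so the number called is near the background. MICA stood at 17.8 and 21.9 CPM in the control and at 31.1 and 35.0 with mivebresib, without overlap. It rose 1.67-fold (log2 FC 0.74, SE 0.12, edgeR adjusted p = 0.00114). MICB stood at 29.7 and 33.7 CPM in the control and at 24.6 and 26.9 with mivebresib, also without overlap, and fell by 0.30 on the log2 scale (SE 0.09, adjusted p = 0.0308). In limma on the quantile-normalized table, however, the MICB difference was positive. The call for MICA was kept without each library in turn, whereas that for MICB was lost without any library but control replicate 1 (adjusted p 0.0520 to 0.162).

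ULBP1, ULBP2 and ULBP3 with mivebresib overlapped the control. ULBP2 had 3.73 and 3.20 CPM and a log2 FC of 0.03 with an interval of -0.40 to 0.47. The intervals were -0.41 to 0.54 for ULBP1 (4.32 and 3.45 CPM) and -0.37 to 0.56 for ULBP3 (3.22 and 2.70 CPM). RAET1E had 2 and 3 counts (ratio 0.630, counting interval 0.162 to 2.19). RAET1G had 8 and 5 counts, a ratio of 6.55 to the control (counting interval 1.48 to 59.8). It was called by edgeR (log2 FC 2.58, past the fold threshold as were 3.96% of all genes upwards, adjusted p = 0.0375) but not by DESeq2 (0.0705), nor without any library other than control replicate 1 (0.0580 to 0.159). Set directly against quisinostat, mivebresib gave lower levels of ULBP2 (log2 difference -1.68, adjusted p = 7.06e-05), ULBP1 (-1.21, adjusted p = 0.00079) and ULBP3 (-0.76, adjusted p = 0.00841), in a comparison where 31.5% of all tested genes were lower and 26.2% higher. MICB (-0.28, adjusted p = 0.0321) was lower as well, but its call was lost without any library other than the controls (adjusted p 0.0529 to 0.180). The ULBP3 call was lost without quisinostat replicate 2 (0.0642) or mivebresib replicate 2 (0.0635). The log2 difference was -2.62 for RAET1G and -2.29 for RAET1E, as a description only, since both passed the filter through libraries of HDAC inhibitors where they are high. Against romidepsin it gave more MICA (0.52, adjusted p = 0.00577) and less MICB (-0.68, adjusted p = 0.000502) and ULBP2 (-0.74, adjusted p = 0.0096), where 23.7% of all genes were higher and 25.2% lower. The ULBP2 call was lost without romidepsin replicate 1 (0.0747) or mivebresib replicate 2 (0.0693). All comparisons with the control use the same 2 control libraries.

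Quisinostat also raised MICA, from 17.8 and 21.9 CPM to 26.9 and 29.5 (log2 FC 0.51, SE 0.12, edgeR adjusted p = 0.00643), although not without quisinostat replicate 2 (0.0575). MICB stood at 30.5 and 32.0 CPM with quisinostat, inside the control range (log2 FC -0.02, interval -0.23 to 0.19). Its sign depended on the scaling, which moved all genes: without TMM factors the median of all genes was at 0.20 and MICB at 0.18, and with upper-quartile factors they were at 0.13 and 0.11. With romidepsin MICA had 23.0 and 22.9 CPM, just above the control libraries (log2 FC 0.21, interval -0.06 to 0.48).

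The balance between MICA and MICB does not depend on scaling, because both counts come from the same library. The ratio of MICA to MICB counts was 0.600 and 0.650 in the control, 0.546 and 0.570 with romidepsin, 0.880 and 0.922 with quisinostat, and 1.26 and 1.30 with mivebresib. No 2 groups overlapped, and only with mivebresib did MICA counts exceed MICB counts. Each drug differed from the control with p = 0.333 in a two-sided exact permutation test (n = 2 per group), the smallest value that 2 libraries against 2 allow. Per kb the order of both genes turned as well, with 13.0 and 14.7 CPM per kb of MICA and 8.80 and 9.63 of MICB under mivebresib. With quisinostat the ranges overlapped, at 11.3 and 12.4 for MICA and 10.9 and 11.4 for MICB. MICA and MICB share 8.77% of the windows of MICA and 7.48% of those of MICB, and MICA also overlaps HCP5 on the same strand, which was not analysed here. Summed into 1 feature, the MIC counts had a log2 FC of 0.32 with romidepsin (adjusted p = 0.0421), 0.21 with quisinostat (0.112) and 0.19 with mivebresib (0.15).

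**Figure D3:**
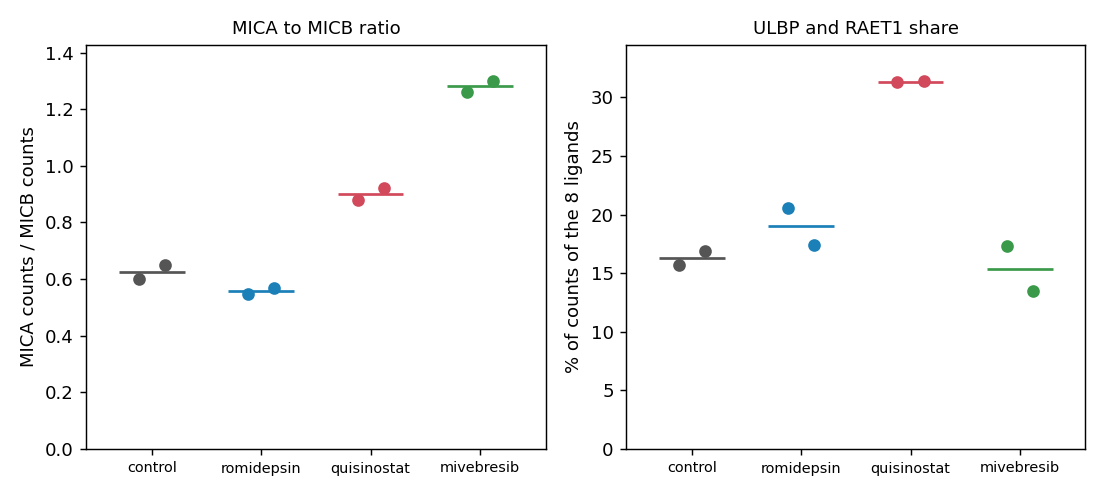
Ratio of MICA to MICB counts (left) and counts of ULBP1, ULBP2, ULBP3, RAET1E, RAET1G and RAET1L as a percentage of all 8 ligands (right), 2 libraries per group with a bar at the mean. The ratio is lowest with romidepsin and highest with mivebresib, and the ULBP and RAET1 share is near 31% with quisinostat and between 13.5% and 20.6% elsewhere.

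The make-up of the ligand transcripts was compared in the same way. The ULBP and RAET1 genes made up 15.7% and 16.9% of the counts of the 8 ligands in the control, 20.6% and 17.4% with romidepsin, 31.3% and 31.4% with quisinostat, and 17.3% and 13.5% with mivebresib. The two-sided exact permutation p against the control was 0.333 for each HDAC inhibitor, whose libraries lay above the control libraries, and 1.0 for mivebresib. The summed level of the 8 genes was 56.3 and 66.9 CPM in the control, 82.1 and 76.4 with romidepsin, 83.5 and 89.5 with quisinostat, and 67.3 and 71.5 with mivebresib. All drug libraries lay above both control libraries in this sum, though mivebresib replicate 1 did so narrowly.

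Across the 8 libraries ULBP1, ULBP2 and ULBP3 followed one another. As a description over 4 groups of 2 libraries, the Pearson correlation of log2 CPM was 0.99 between ULBP1 and ULBP2, 0.96 between ULBP1 and ULBP3 and 0.93 between ULBP2 and ULBP3, against -0.50 between MICA and MICB. With ULBP1, ULBP2 and ULBP3 in turn it was 0.84, 0.87 and 0.82 for RAET1G and 0.80, 0.78 and 0.75 for RAET1E, genes with transmembrane forms and few counts. Of 9838 other genes (mean log2 CPM 3 or more), the closest in pattern was ABCA5 for MICA (r = 0.997), PTPDC1 for MICB (0.988), PTPRU for ULBP1 (0.983), TMC6 for ULBP2 (0.992) and DPY19L3 for ULBP3 (0.976). ABCA5, a transporter of the ABC family, went from 8.86 and 14.9 CPM in the control to 32.7 and 38.1 with mivebresib. TMC6 went from 6.63 and 7.34 CPM in the control to 15.8 and 17.2 with quisinostat, and was at 6.66 and 6.94 with mivebresib. For the scarce members the closest genes were THBS2 for RAET1E (0.978) and NTNG2 for RAET1G (0.989).

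**Figure D4:**
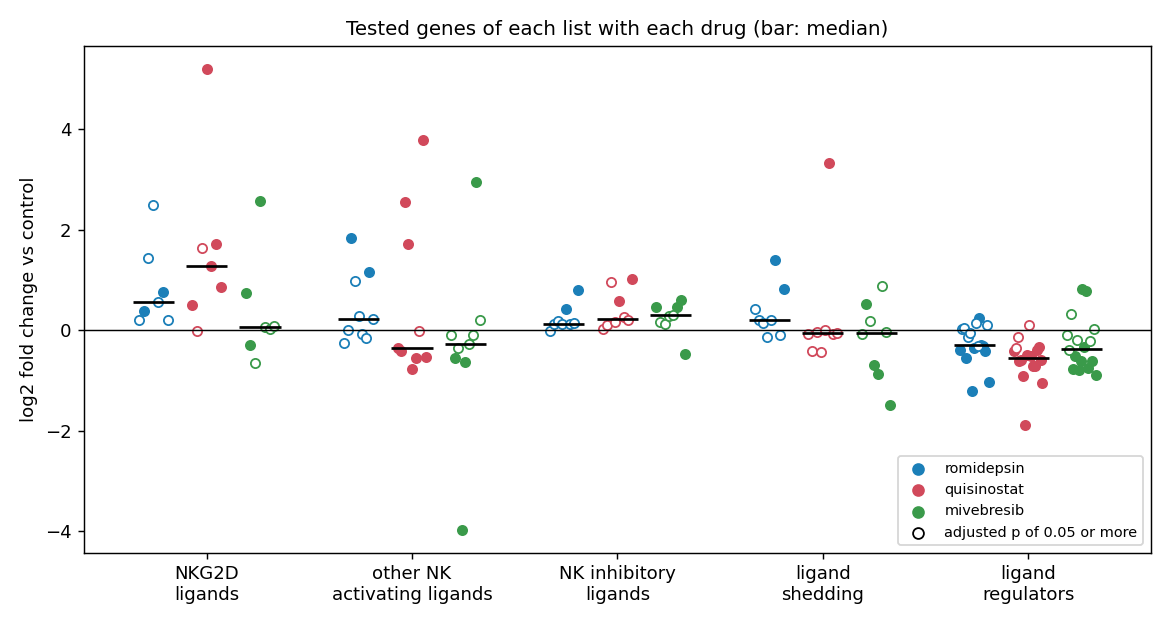
log2 FC against the control (y axis) of the tested genes in the ligand list and 4 related lists for each drug, filled where the adjusted p was below 0.05, with a black bar at each median. The lowest point is CLEC2B with mivebresib and the highest is RAET1G with quisinostat, while most genes of the regulator list lie below 0.

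Other genes of the pathway were read from lists chosen with earlier results of these data known. The 9 ligands of other activating or adhesion receptors of NK cells changed in both directions. With quisinostat 3 were higher and 5 lower, with romidepsin 2 higher and none lower, and with mivebresib 1 higher and 3 lower. Over all tested genes the shares were 28.0% higher and 25.1% lower with quisinostat, 15.2% and 15.8% with romidepsin, and 22.2% and 24.1% with mivebresib, so several of these counts are near the background. PDGFD, a growth factor that binds NKp44, is counted among the higher genes with each drug. With 8 and 11 counts in the control, it passed the filter only through drug libraries, where it is high. As a description, it went from 0.283 and 0.402 CPM in the control to 4.50 and 5.10 with quisinostat (log2 FC 3.79). With mivebresib it was at 2.30 and 3.02 CPM (log2 FC 2.95). CD70, which binds CD27, went from 2.34 and 2.05 CPM to 13.5 and 12.4 with quisinostat (log2 FC 2.56) and to 7.87 and 7.75 with romidepsin (log2 FC 1.83). CLEC2B, the ligand of NKp80, was called lower with mivebresib, with 2 counts over both libraries against 35 in the control (ratio 0.0576, counting interval 0.00671 to 0.224). With quisinostat CLEC2B was called higher, at 73 and 59 counts against 13 and 22 in the control (log2 FC 1.73, edgeR adjusted p = 0.00525). ICAM1, an adhesion molecule, fell by 0.77 with quisinostat and by 0.64 with mivebresib on the log2 scale. PVR, a ligand of DNAM-1, fell by 0.53 with quisinostat.

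Of the inhibitory list, which holds HLA class I genes, B2M, CLEC2D and CDH2, 8 of 9 genes were tested, and 2 were called higher under each HDAC inhibitor. Mivebresib gave 3 higher genes and 1 lower gene, HLA-F. The shares of all tested genes called higher were 15.2% with romidepsin, 28.0% with quisinostat and 22.2% with mivebresib. Those called lower were 15.8%, 25.1% and 24.1%. Neither the quisinostat count nor the lower count with mivebresib is therefore above the background. HLA-F and HLA-B were the genes called with both HDAC inhibitors, with a log2 FC of 1.03 and 0.59 under quisinostat. HLA-E, which engages the inhibitory receptor NKG2A, rose by a log2 FC of 0.59 with mivebresib. B2M, the invariant class I chain, rose by 0.47 with that drug. Medians over this list were 0.13, 0.23 and 0.30 for romidepsin, quisinostat and mivebresib, against -0.012, -0.0036 and 0.0067 over all tested genes.

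The 8 genes linked to ligand shedding were all tested. MMP9, a secreted protease, went from 0.354 and 0.292 CPM in the control (10 and 8 counts) to 3.20 and 3.41 with quisinostat (log2 FC 3.33). It was called with both HDAC inhibitors. However, it passed the filter only through drug libraries, where it is high, so these values are a description. TIMP3, an inhibitor of ADAM17, rose with romidepsin (log2 FC 0.81), and with mivebresib it fell from 107.6 and 144 CPM in the control to 45.7 and 43.5. ADAM17 rose with mivebresib from 56.4 and 79.3 CPM to 89.0 and 106 (log2 FC 0.52, edgeR adjusted p = 0.0267), whereas the proteases MMP2 and MMP14 fell by 0.88 and 0.69. ADAM9, ADAM10 and PDIA6 were called with no drug, with log2 FC values between -0.09 and 0.43.

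All 16 genes listed as regulators of ligand expression were tested. Of these 1 was higher and 8 lower with romidepsin, none higher and 13 lower with quisinostat, and 2 higher and 8 lower with mivebresib. Over all tested genes 15.8%, 25.1% and 24.1% were lower and 15.2%, 28.0% and 22.2% higher with these drugs. E2F1, a cell cycle factor, fell by 1.21, 1.88 and 0.78 with romidepsin, quisinostat and mivebresib. CHEK1, a kinase of the DNA damage response, fell by 0.56, 0.61 and 0.77. HSF1, the heat shock factor, fell by 0.51 with quisinostat and 0.33 with mivebresib. MYC went from 102 and 101 CPM in the control to 62.0 and 61.8 with quisinostat (log2 FC -0.71) and to 176 and 173 with mivebresib (log2 FC 0.78). It was also called higher with romidepsin (log2 FC 0.24, edgeR adjusted p = 0.0343). HDAC3 rose with mivebresib (log2 FC 0.81), and its level was also higher there than with romidepsin (log2 difference 0.67, edgeR adjusted p = 0.000924) or quisinostat (0.70, adjusted p = 0.00056). No relation of these genes to the ligands was tested.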

How the data were processed

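Bulk RNA of 8 MP38 libraries was analysed from 3 deposited tables. The authors processed paired-end reads with BioJupies. The submitters' processing notes name hg38, while the aligner, counter and annotation are not given in the sources used here. The deposited counts are raw reads per gene symbol. The deposited log10 values equal log10(CPM + 1) of these counts within 1e-09 and were not used further. The authors' quantile-normalized score has no named scale. It was multiplied by 1e6 and tested without a log, so its differences carry only a sign and an adjusted p.

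Counts were analysed with edgeR 4.0.16 in R 4.3.3, with TMM scaling, filterByExpr by group, 1 quasi-likelihood model of all 8 libraries (biological coefficient of variation 0.09377) and adjustment over all 15085 tested genes. The study itself used limma through BioJupies. A gene was called at an adjusted p below 0.05. Intervals are 95%, and SE is the log2 FC divided by the square root of F. log2 CPM used a prior count of 2. Alternatives were DESeq2 1.42.0, limma-voom and limma 3.58.1 on the score, other scaling, filters, samples and thresholds, a replicate block, summed similar genes and each library left out. A crossed replicate block was added after seeing the data. Scripts were tested on simulated data with known changes.

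The members and lists were chosen with earlier results of these data known. The text names all members, the closest gene in pattern for each tested member, and from each list the called genes at its extremes. Some further listed genes, ICAM1, PVR, HLA-B, HLA-E, B2M, CHEK1, HSF1, MYC, HDAC3, MMP14, MMP2, ADAM17, and uncalled ones, were picked after their values were seen. Positions and exon lengths came from GENCODE 29 and promoters from RefSeq GRCh38.p14, aligned with Biopython 1.88 on Python 3.11.15. Figures were drawn with matplotlib 3.10.9.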

Additional observations from a re-analysis of the deposited data

How the results depend on the processing

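Of the 7 tested ligands, counts called were 2 (romidepsin), 5 (quisinostat) and 3 (mivebresib) against the control, 5 for quisinostat against romidepsin, and for mivebresib 3 against romidepsin and 6 against quisinostat. These include RAET1E and RAET1G, which passed the filter only through groups where they are high, so the counts only compare settings. Over the 5 other ligands they were 2, 4, 2, 4, 3 and 4. In that order, limma on the quantile-normalized table gave 1, 2, 2, 1, 1 and 2, a fit of only the 4 libraries compared gave 0, 5, 1, 6, 5 and 6 (of 6, 7, 5, 7, 6 and 6 ligands tested there), the added fold threshold gave 0, 2, 1, 1, 0 and 3, and summing similar genes gave 2, 3, 0, 3, 1 and 4 over 5 features. DESeq2 gave 2, 5, 2, 4, 3 and 4. Without TMM factors 5 ligands were called for mivebresib against romidepsin. The fold threshold and the summed features can only remove or merge calls, and for the other differences the cause was not tested.

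Leaving out 1 library gave 0 to 5 calls for romidepsin, 4 to 6 for quisinostat, 1 to 3 for mivebresib, 2 to 6 for quisinostat against romidepsin, and 2 to 5 and 3 to 7 for mivebresib against romidepsin and quisinostat. The log2 FC against the control then ranged from -0.1116 to 0.06832 for MICB with quisinostat. With mivebresib it ranged from -0.1135 to 0.2649 for ULBP1, from -0.08408 to 0.1409 for ULBP2, from -0.1203 to 0.3352 for ULBP3 and from -1.453 to 1.255 for RAET1E. Between drugs it ranged from -0.3526 to 0.593 for RAET1E (quisinostat against romidepsin), and from -0.3097 to 0.383 for RAET1G and from -0.2555 to 0.002442 for ULBP3 (mivebresib against romidepsin). None of these values that crossed 0 was called.

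Signs also turned under other alternatives, among them those of called values. They included MICB for mivebresib against the control and ULBP3 for quisinostat against romidepsin. The same held for MICA for mivebresib against romidepsin, and for MICB and ULBP3 for mivebresib against quisinostat. MICB with quisinostat was at 0.182 without TMM factors, 0.1113 with upper-quartile factors, 0.03023 with a mean CPM of at least 1, 0.01933 on the quantile-normalized table and 0.2063 summed with MICA. MICB with mivebresib was at 0.3018 on that table and 0.1911 summed. For quisinostat against romidepsin the table gave -1.947 for MICA, -1.116 for ULBP3 and -3.449 for RAET1E, and the MIC sum -0.1101. For mivebresib against romidepsin the table gave 0.87 for ULBP3, the MIC sum -0.1254 and the sum of ULBP2, RAET1L and RAET1G -0.6966. For mivebresib against quisinostat the table gave 0.2824 for MICB and 1.986 for ULBP3, and the MIC sum -0.01521. The values from the table are mean differences of its score times 1e6, not log2 FC, and their size is not comparable with the others.

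Replicate numbers were shared by all groups, but correlations of same-numbered deviations ran from -0.1622 to 0.1579, so the numbers were not taken to pair the libraries. The replicate block gave 2, 5, 3, 6, 4 and 6 calls in the order above. A block with the romidepsin numbers crossed, chosen after seeing the data, gave 4, 5, 3, 6, 5 and 7. The few counts of RAET1E, RAET1G and RAET1L limit what can be said of them at this depth, and 2 wells of 1 line limit all p-values.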
